A study of Mus musculus with 13 samples.

Results

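Interferon-stimulated genes encode the receptors, signal carriers and antiviral effectors through which a cell answers interferon, and the immunity GTPases among them act on membranes around intracellular microbes. Here 39 such genes were followed in microglia of newborn mice. The genes were chosen by name, with earlier results of these data known. All 39 were found by Ensembl ID among the 55487 genes measured. Microglia, the resident macrophages of the brain, were taken from mice labelled maternal immune activation (MIA) and from control mice (CON). The titles give postnatal day 4 for every library, whereas the series gives a range of days 3 to 5. The sources used here do not give the agent that the dams received, the strain, the sex or the litter. Each group had 5 retained libraries, MIA 1 to 5 and CON 1 to 5. Another 3 libraries, MIA 6, MIA 7 and CON 6, carry titles that mark them as excluded, for a reason not given in the sources used here, and their values are shown beside the others. Both groups shared the whole brain as source, drained of blood without perfusion and freed of meninges, a warm papain digestion, and selection with magnetic beads against CD11b, a surface protein that other myeloid cells carry too. Nothing states that the libraries came from separate animals or litters, so the p-values measure the spread between these libraries, which may be technical.

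Type I interferons bind a receptor built from the products of Ifnar1 and Ifnar2, and interferon gamma binds a receptor built from those of Ifngr1 and Ifngr2. Both receptors work through Janus kinases and STAT proteins: type I signals lead to a complex that holds STAT2 and IRF9 and binds the interferon-stimulated response element (ISRE), whereas interferon gamma signals act through the gamma-activated site (GAS). In brain, microglia are known to answer both kinds of interferon, and a low level of these genes is kept up by tonic signalling without infection.

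Expression is given as CPM, the count of a gene over the scaled total of its library, which is not adjusted for gene length and is compared here only between libraries. Total counts ran from 25387055 to 35593541 per library, and the floor that 0 counts leave, 3 counts, came to 0.0875 to 0.117 CPM, which covers counting error only. All 9 microglia markers, Csf1r and Tmem119 among them, were present and lower in MIA, with a summed level of 14563 to 18708 CPM in MIA 1 to 5 and 22125 to 28413 CPM in CON 1 to 5. All 9 endothelial markers were higher in MIA, at 2522 to 4267 CPM against 860 to 1394 CPM in CON. Of 6 neuronal markers 4 were higher, at 82.5 to 119 against 37.8 to 57.0 CPM. The excluded libraries did not keep this order. Microglia markers summed to 21370 and 21853 CPM in MIA 6 and MIA 7, against 19528 CPM in CON 6. Endothelial markers summed to 2131 and 2332 CPM, against 2671 CPM, and neuronal markers to 53.0 and 45.9 CPM, against 51.3 CPM. None of 6 border macrophage, 5 monocyte, 6 neutrophil, 5 astrocyte or 6 erythroid markers passed; neutrophil markers summed to 28.0 to 61.8 CPM in MIA and 48.6 to 114 CPM in CON. In the lymphocyte list the sum stayed at or below 2.88 CPM in all 13 libraries. Among 5 plasmacytoid dendritic cell markers, Tcf4, which other brain cells express too, was higher, and Klk1 was at 0 in every library. CON 1 and CON 2 stood apart from the other 11 libraries: the mean log2 CPM of 14 genes induced by tissue dissociation was 6.72 and 6.65 in these 2, against 8.22 to 8.81, and erythroid markers summed to 61.4 and 80.3 CPM, against 1162 to 3054. Several results are therefore given with and without these 2 libraries.

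No member of the set was higher in MIA and 4 were lower: the interferon gamma receptor genes Ifngr1 and Ifngr2, the immunity GTPase gene Irgm2 and the channel gene Calhm6. The mean level in MIA was 0.627 of that in CON for Ifngr1, 0.782 for Ifngr2, 0.646 for Irgm2 and 0.487 for Calhm6. In bulk RNA, fewer cells of a type and less RNA per cell cannot be told apart. The microglia and endothelial markers moved with the same retained groups, and their part in these results was not tested. The classical antiviral effector genes Ifit1, Isg15 and Mx1 had low counts in both groups (15 to 181 per library), and none of them passed. The test was edgeR's quasi-likelihood test over the 15511 genes that passed a filter on low counts, as all 39 members did, with a Benjamini-Hochberg threshold of 0.05. Of all genes tested, 4.58% were lower and 5.75% higher (710 and 892 genes; 496 and 1036 when scaled to total counts alone); of the members, 10.3% were lower and 0 were higher. The log2 fold change, MIA over CON, was negative in 30 of 39 members (76.9%), against 51.1% of all genes, with a median of −0.22 against −0.0085. Leaving out a single retained library moved the median of the members to between −0.25 (without MIA 2) and −0.11 (without CON 3). Mean log2 CPM of the members was 4.11 to 4.33 in MIA 1 to 5 and 4.22 to 4.74 in CON 1 to 5, highest in CON 3. The members were chosen with earlier results of these data known, so shares of members and of all genes are a description with no test. At an unadjusted p under 0.05, 10 members were lower and 1, Ifi44, was higher, where 11.3% and 11.4% of all genes were. DESeq2's Wald test called 8 members lower and 1 higher, where 6.72% and 7.8% of all genes were. The retained MIA libraries all lay below the retained CON libraries in 6 members (15.4%) and all above in 0, against 4.36% and 5.59% of all genes; these 6 were the 4 lower genes, Ifnar2 and Stat2. Without CON 1, 7 members were lower, where 6.51% of all genes were, and with both CON 1 and CON 2 left out also 7, where 5.38% of all genes were lower. Without CON 3, 1 member was higher, Ifi44, where 4.77% of all genes were. With all 13 libraries 3 members were lower, where 1.5% of genes were, and with all 13 except CON 1 and CON 2 only Irgm2 was, where 0.231% of genes were.

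**Figure D1:**
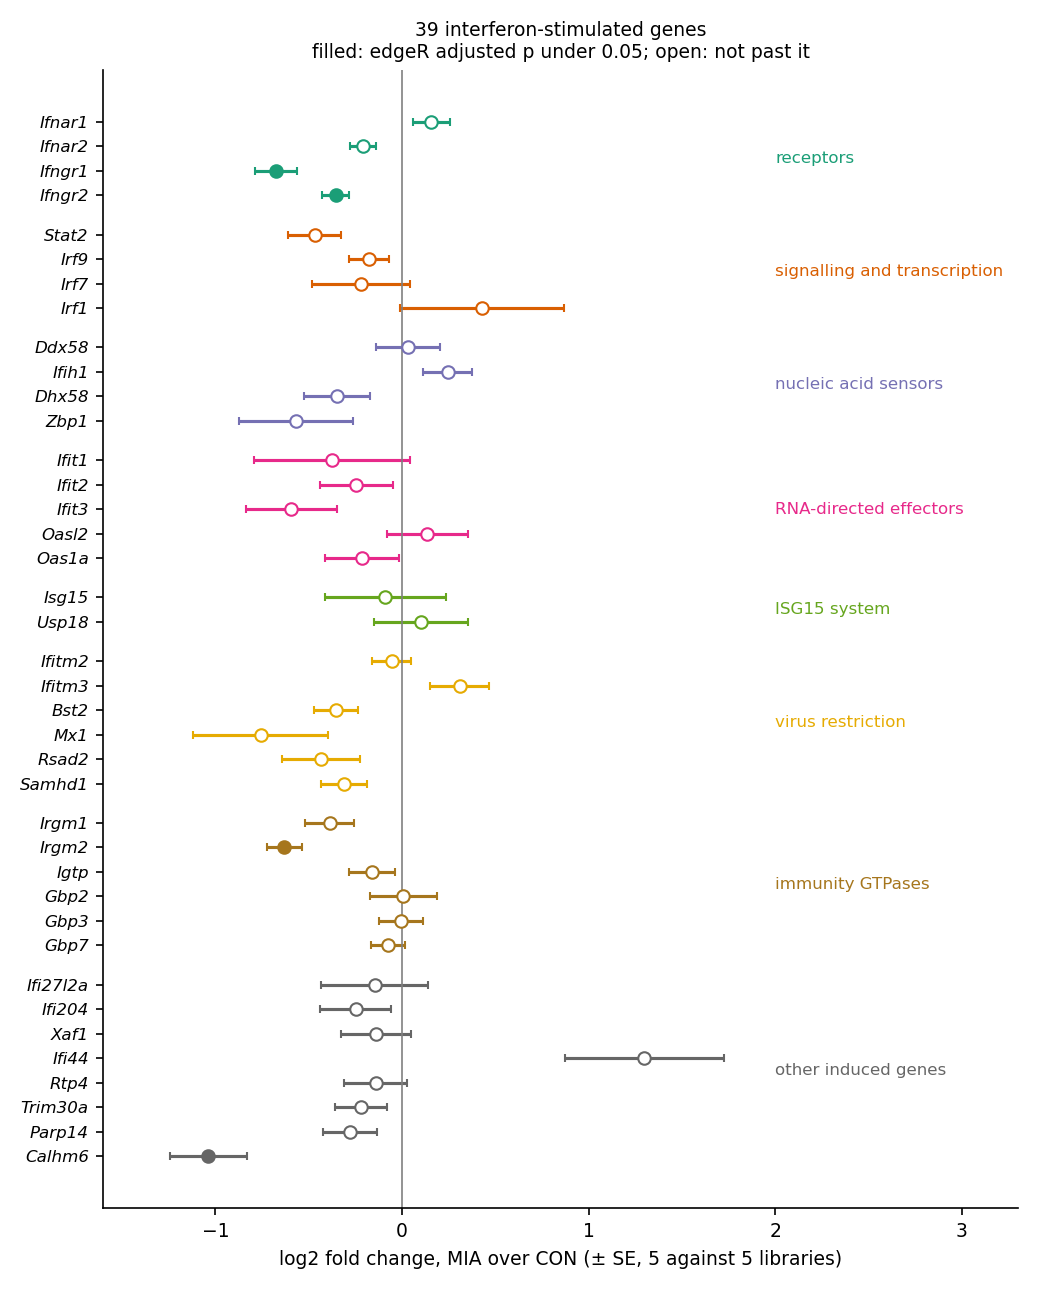
Log2 fold change, MIA over CON, of the 39 genes by role, with its standard error, from 5 against 5 retained libraries. Filled circles passed an edgeR adjusted p of 0.05; the 4 filled circles, Ifngr1, Ifngr2, Irgm2 and Calhm6, lie left of 0, and Ifi44 lies farthest right at 1.30 without passing.

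Among the receptor genes, both chains of the interferon gamma receptor were lower in MIA. Ifngr1 (ENSMUSG00000020009.13), which encodes the ligand-binding chain, was at 394, 373, 356, 319 and 326 CPM in MIA 1 to 5, against 620.2, 709, 497, 475 and 516 CPM in CON 1 to 5. All retained MIA libraries lay below all retained CON libraries, with CON 1 and CON 2 the highest. The means were 353 ± 31.6 and 564 ± 98.6 CPM (SD, n = 5 each), and the log2 fold change with its SE was −0.67 ± 0.11, at an edgeR adjusted p of 0.00207. Ifngr2 (ENSMUSG00000022965.8), which encodes the signalling chain, was at 137, 142, 129, 119 and 121 CPM in MIA, against 179, 173, 163, 158 and 156 CPM in CON. Again the groups did not overlap. The log2 fold change was −0.36 ± 0.07 (edgeR adjusted p = 0.00654), with means of 129.5 ± 9.80 and 166 ± 9.76 CPM. In the excluded libraries the order was not kept: MIA 6 and MIA 7 had 412 and 469.6 CPM of Ifngr1 and 143 and 140.2 CPM of Ifngr2, against 425 and 142 CPM in CON 6. With CON 1 and CON 2 left out the log2 fold changes were −0.50 for Ifngr1 and −0.31 for Ifngr2 (edgeR adjusted p = 0.00187 and 0.0188). With all 13 libraries except those 2 they were −0.34 and −0.22 and no longer passed (edgeR adjusted p = 0.0922 and 0.108).

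The chains of the type I interferon receptor did not pass edgeR's test. Ifnar1 was at 150.01, 137, 155, 158 and 167 CPM in MIA 1 to 5, against 110.0, 165, 136, 133 and 144 CPM in CON 1 to 5, so that the groups overlapped and the log2 fold change of 0.16 ± 0.10 was positive. Ifnar2 was at 101, 89.5, 99.0, 98.5 and 98.9 CPM in MIA, against 124, 112, 104, 106 and 119 CPM in CON. These groups did not overlap, but the log2 fold change of −0.21 ± 0.07 had an edgeR adjusted p of 0.0766. DESeq2 called Ifnar2 lower (adjusted p = 0.0445). In the excluded libraries Ifnar2 was at 103 and 110 CPM in MIA 6 and MIA 7, against 106 CPM in CON 6. The log2 ratio of Ifngr1 to Ifnar1 within a library was 1.20 ± 0.22 in MIA and 2.03 ± 0.28 in CON (SD, n = 5 each), from 0.96 to 1.45 in MIA and from 1.83 to 2.49 in CON. This pair was chosen after its fold changes were seen, so the ratio is a description with no test; with CON 1 and CON 2 left out the CON mean was 1.85. The log2 ratio of Ifngr2 to Ifnar2 was 0.41 ± 0.16 in MIA and 0.56 ± 0.10 in CON, and the groups overlapped.

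**Figure D2:**
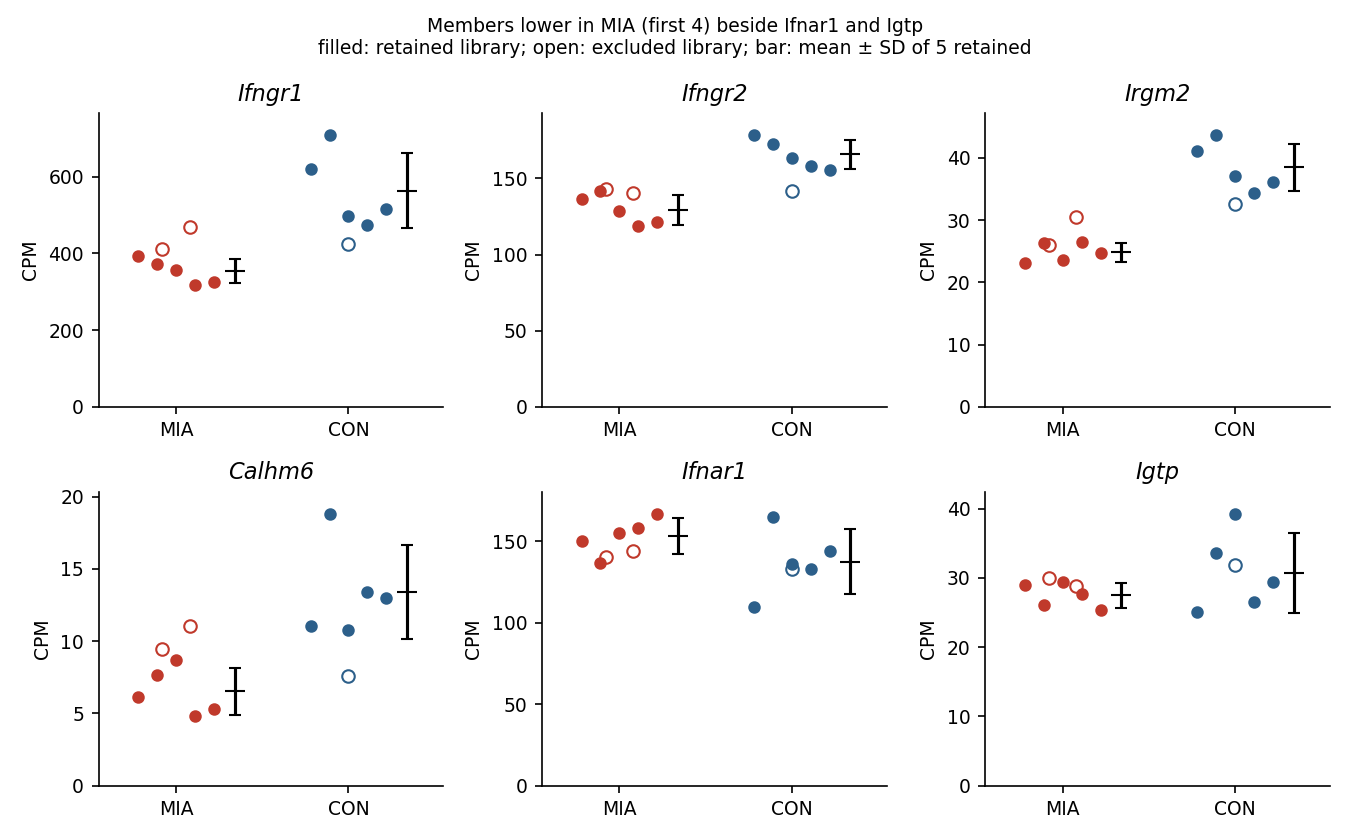
CPM per library, MIA left of CON, for the 4 genes lower in MIA and for Ifnar1 and Igtp, which did not pass. Filled circles are retained and open circles excluded libraries, and bars give the mean ± SD of 5 retained libraries; the filled circles of the groups are separate for Ifngr1, Ifngr2, Irgm2 and Calhm6 and overlap for Ifnar1 and Igtp.

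To set the sequence upstream of these genes beside their levels, promoters from RefSeq (assembly GRCm38.p6, 250 bases before to 50 bases after the start) were searched on both strands for the ISRE letters (GAAA, any 2 bases, GAAA) and the GAS letters TTCNNNGAA. Promoters were found for 31 of 39 members. The ISRE letters stood in at least 1 promoter of 19 of these genes (61.3%), against 3.99% of 27025 mouse genes, and the GAS letters in 11 (35.5%), against 9.55%; 6 held both and 7 neither. Of single promoters, 3.44% and 8.3% of 32851 held them. A match describes the letters only. The last 150 bases before the start are printed for the receptor genes that were lower, chr10:19591799-19591948 and chr16:91546909-91547058, both read on the plus strand; neither promoter held either set of letters, so nothing is in capitals.
Ifngr1: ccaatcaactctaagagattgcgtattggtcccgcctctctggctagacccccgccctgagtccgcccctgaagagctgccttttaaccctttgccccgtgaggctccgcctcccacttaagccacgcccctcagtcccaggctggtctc
Ifngr2: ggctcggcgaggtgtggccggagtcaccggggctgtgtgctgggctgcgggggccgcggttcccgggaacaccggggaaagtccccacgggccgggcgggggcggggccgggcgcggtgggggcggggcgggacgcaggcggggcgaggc
The median log2 fold change was −0.22 in the 19 members with the ISRE letters and −0.19 in the 12 without, side by side with the −0.22 of all members.

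Downstream of the receptors, none of the 4 genes of signalling and transcription passed. Stat2, a signal carrier of the type I receptor, was at 17.6, 20.3, 12.3, 15.9 and 19.7 CPM in MIA 1 to 5, against 21.2, 24.8, 26.6, 21.3 and 24.7 CPM in CON 1 to 5. The groups did not overlap, and the log2 fold change of −0.47 ± 0.14 fell just short of the threshold (edgeR adjusted p = 0.0507). MIA 6 and MIA 7, at 22.6 and 22.1 CPM, lay below CON 6 at 28.2 CPM but above CON 1 and CON 4. Stat2 passed in 6 of 21 alternatives. These were the fits without CON 1 (edgeR adjusted p = 0.0326) and without MIA 2 (0.0411), DESeq2 size factors, upper-quartile scaling, DESeq2's Wald test and limma-voom. Irf9, which encodes the DNA-binding partner of the STATs, was at 45.4, 47.9, 45.4, 36.5 and 39.3 CPM in MIA, against 43.0, 49.3, 56.4, 41.7 and 51.7 CPM in CON, with wide overlap. Irf7, the amplifier of type I interferon production, averaged 7.98 ± 1.53 CPM in MIA and 9.30 ± 4.03 CPM in CON (SD, n = 5 each). CON 3 had the most Irf7, 15.8 CPM, and without CON 3 its log2 fold change of −0.22 became 0.057.

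Irf1, an early transcription factor that interferon gamma is known to induce, was split within the controls. It was at 94.6, 76.7, 92.4, 75.9 and 80.1 CPM in MIA 1 to 5, against 21.9, 22.9, 105, 85.2 and 76.1 CPM in CON 1 to 5. CON 1 and CON 2 were the lowest of the 13 libraries, and the other 3 controls lay within or above the MIA range. The log2 fold change of 0.43 ± 0.44 did not pass (edgeR adjusted p = 0.641), and with CON 1 and CON 2 left out it was −0.094. Its promoter, shown as a member with the GAS letters alone (in capitals), spans chr11:53769864-53770013 on the plus strand.
Irf1: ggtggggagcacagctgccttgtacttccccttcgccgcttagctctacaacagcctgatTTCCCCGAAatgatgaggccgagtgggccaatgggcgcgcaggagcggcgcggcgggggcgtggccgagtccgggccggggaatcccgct
In both CON 1 and CON 2, 4 members, Irf1, Ddx58, Ifi27l2a and Ifi44, were below all other 11 libraries (10.3% of members, against 6.03% of all genes), and 3 members, Ifngr1, Ifngr2 and Irgm2, were above all of them (7.69%, against 5.01%). The dissociation-induced genes moved with this split, and their part in it was not tested.

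**Figure D3:**
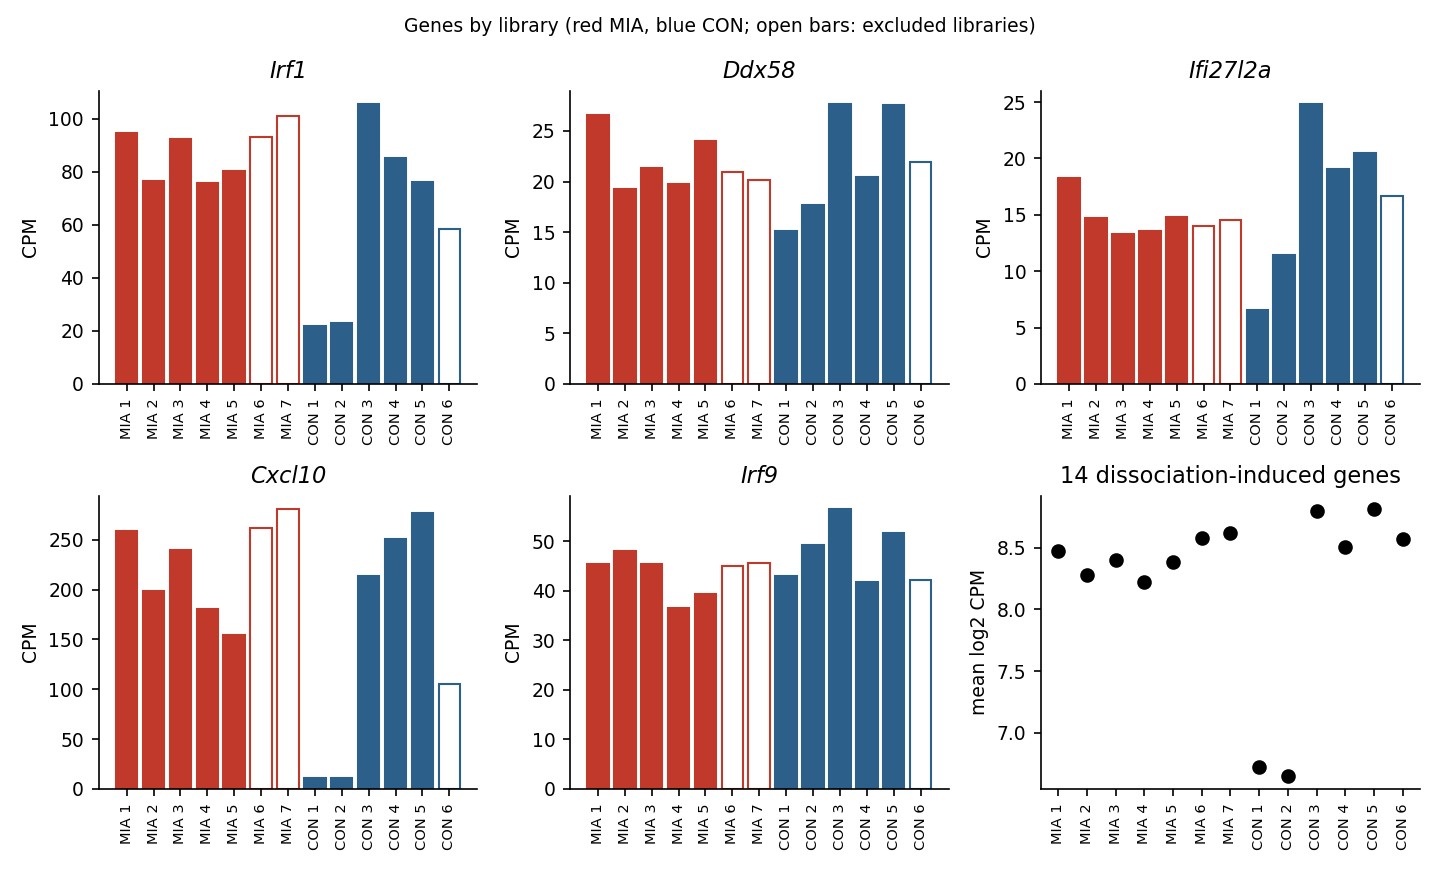
CPM of 5 genes in each of the 13 libraries, MIA left of CON, with the mean log2 CPM of 14 dissociation-induced genes in the last panel; filled bars are retained and open bars excluded libraries. Irf1 and Cxcl10 are lowest in CON 1 and CON 2, at 21.9 and 22.9 CPM and at 10.8 and 11.04 CPM, as are the dissociation-induced genes, whereas Irf9 in these 2 libraries, at 43.0 and 49.3 CPM, lies within the range of the others.

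Of the 4 sensors of foreign nucleic acid, none passed. Ddx58, which encodes the RNA sensor RIG-I, was at 26.6, 19.3, 21.4, 19.7 and 24.0 CPM in MIA 1 to 5, against 15.1, 17.6, 27.6, 20.4 and 27.6 CPM in CON 1 to 5. The groups overlapped, and the log2 fold change of 0.03 ± 0.17 was −0.20 with CON 1 and CON 2 left out. Ifih1, which encodes the RNA sensor MDA5, was at 18.0, 25.0, 22.7, 21.8 and 27.4 CPM in MIA, against 16.0, 18.5, 22.8, 19.1 and 20.6 CPM in CON, a log2 fold change of 0.24 ± 0.13 with overlap (edgeR adjusted p = 0.305). Dhx58, a regulator of both, averaged 11.2 ± 2.07 CPM in MIA and 14.3 ± 2.97 CPM in CON. Zbp1, a sensor of left-handed nucleic acid, was scarce at 1.83 ± 0.439 and 2.72 ± 0.773 CPM (SD, n = 5 each).

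The 5 effectors that act on viral RNA did not pass. Oas1a, a synthetase of the oligoadenylates that switch on RNase L, was at 19.1, 22.2, 21.8, 17.2 and 17.9 CPM in MIA 1 to 5, against 13.95, 18.3, 34.1, 23.2 and 24.4 CPM in CON 1 to 5. Its control range enclosed the MIA range, and it passed as lower only with CON 1 and CON 2 left out (log2 fold change −0.48; edgeR adjusted p = 0.0466). Oasl2, a relative of it, was at 18.1, 12.9, 16.2, 14.8 and 17.8 CPM in MIA, against 9.50, 13.4, 22.2, 10.0 and 17.5 CPM in CON, with CON 1 lowest and CON 3 highest. Among the Ifit genes, whose proteins bind viral RNA, Ifit2 averaged 10.6 ± 1.88 CPM in MIA and 12.6 ± 3.19 CPM in CON. Ifit3 averaged 8.06 ± 1.75 and 12.2 ± 4.38 CPM (SD, n = 5 each; edgeR adjusted p = 0.161), and Ifit1 3.07 ± 1.36 and 3.97 ± 1.76 CPM. Ifit1 ran from 0.851 CPM in MIA 3 to 6.18 CPM in CON 1, a wide spread at a low level. Its promoter, shown as one with the ISRE letters in a pair of copies (in capitals, as their reverse complement), spans chr19:34640739-34640888 on the plus strand.
Ifit1: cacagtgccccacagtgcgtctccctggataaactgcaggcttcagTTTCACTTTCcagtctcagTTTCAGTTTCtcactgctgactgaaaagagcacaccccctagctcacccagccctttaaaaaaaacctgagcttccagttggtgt
Reads of Oas1a and Ifit3 are uncertain in their assignment, since 57.6% of the 50-base words in Oas1a transcripts also occur in Oas1g and 51.2% of those in Ifit3 in Ifit3b.

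The ISG15 system, a ubiquitin-like tag and the protease that removes it, was at a low level with overlapping groups. Isg15 was at 1.86, 3.02, 2.72, 2.03 and 3.14 CPM in MIA 1 to 5, against 1.97, 1.89, 4.70, 2.01 and 3.00 CPM in CON 1 to 5. Usp18, which removes the tag and dampens type I receptor signalling, was at 5.603, 9.03, 7.45, 5.26 and 8.16 CPM in MIA, against 6.01, 5.68, 9.65, 3.89 and 7.87 CPM in CON. CON 3 had the highest value of both. The log2 fold changes were −0.09 ± 0.33 for Isg15 and 0.10 ± 0.25 for Usp18 (edgeR adjusted p = 0.914 and 0.868).

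Of 6 genes that restrict viruses at membranes or during replication, none passed. Bst2, which encodes tetherin, was at 56.8, 51.7, 59.8, 46.9 and 54.8 CPM in MIA 1 to 5, against 51.1, 69.9, 82.9, 65.9 and 74.8 CPM in CON 1 to 5. Of the controls only CON 1 reached into the MIA range, and the log2 fold change of −0.35 ± 0.12 (edgeR adjusted p = 0.0807) became −0.44 without CON 1 and passed (0.00581). Bst2 also passed with upper-quartile scaling, with DESeq2's Wald test and with CON 1 and CON 2 left out, in 4 of 21 alternatives in all. Samhd1, whose product depletes nucleotides, was at 40.9, 44.0, 33.0, 35.8 and 38.96 CPM in MIA, against 36.7, 52.1, 58.5, 43.8 and 47.8 CPM in CON; its log2 fold change of −0.31 ± 0.12 passed only without CON 1 (edgeR adjusted p = 0.148, and 0.0271 without CON 1). Ifitm3, which blocks entry through endosomes, was at 60.5, 45.6, 68.7, 51.5 and 58.5 CPM in MIA, against 31.3, 45.2, 56.5, 40.7 and 56.1 CPM in CON. Its log2 fold change of 0.31 ± 0.16 was positive, with overlap, and CON 1 was the lowest library. The related Ifitm2 averaged 45.6 ± 3.84 CPM in MIA and 47.4 ± 6.82 CPM in CON (SD, n = 5 each), and 48.5% of its 50-base words occur in other genes. Mx1, a dynamin-like GTPase that traps influenza virus, averaged 1.59 ± 0.671 and 2.68 ± 0.472 CPM, and Rsad2, which encodes viperin, 5.30 ± 0.947 and 7.16 ± 1.77 CPM; neither passed (edgeR adjusted p = 0.237 and 0.244).

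**Figure D4:**
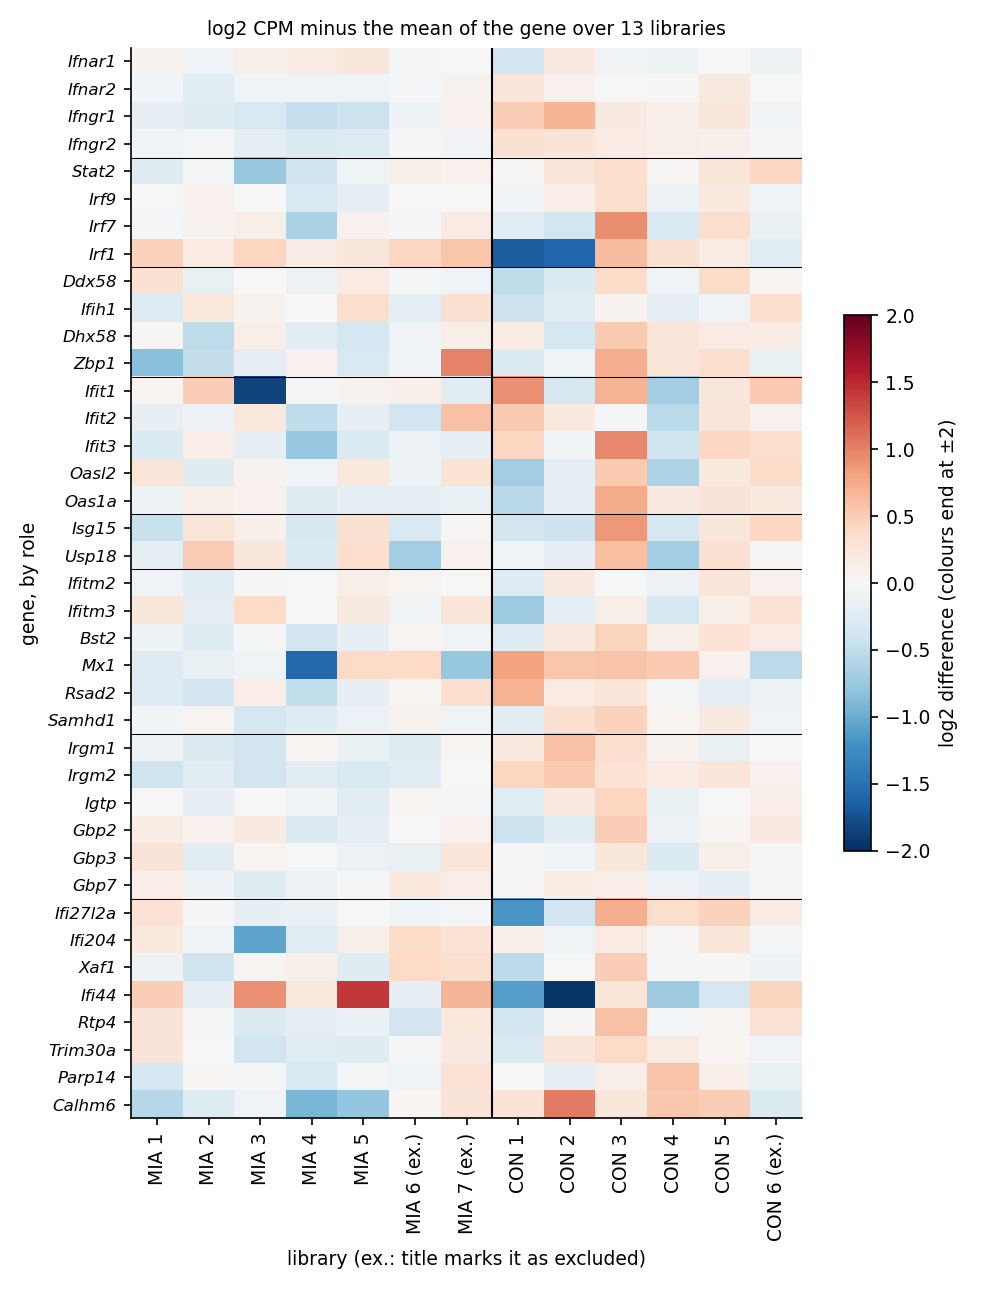
Log2 CPM of the 39 genes in all 13 libraries, MIA left of CON, each minus the mean of the gene over the 13 libraries; red is above and blue below that mean. Ifngr1, Irgm2 and Calhm6 are blue in MIA 1 to 5 and red in CON 1 to 5, Irf1 is deep blue in CON 1 and CON 2, and CON 3 is red in nearly every row.

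Among the 6 immunity GTPases, Irgm2 alone passed. Irgm2 (ENSMUSG00000069874.7), a member of the regulatory class that holds the other immunity-related GTPases in check, was at 23.2, 26.3, 23.6, 26.5 and 24.8 CPM in MIA 1 to 5, against 41.1, 43.7, 37.1, 34.3 and 36.2 CPM in CON 1 to 5. The gap between the groups was wide, and MIA 6 and MIA 7, at 26.0 and 30.4 CPM, also lay below CON 6 at 32.5 CPM; it was the only member in which all 7 MIA libraries lay below all 6 CON libraries, as in 0.574% of all genes. The log2 fold change was −0.63 ± 0.09 (edgeR adjusted p = 0.000939), and it passed in each of the 21 alternatives, with an adjusted p of up to 0.0444. Irgm1, of the same regulatory class, was at 31.5, 27.8, 26.3, 34.8 and 30.9 CPM in MIA, against 38.9, 50.7, 42.5, 35.5 and 30.4 CPM in CON. CON 5 overlapped with MIA, and the log2 fold change of −0.39 ± 0.13 (edgeR adjusted p = 0.0859) became −0.47 and passed without CON 5 (0.0349). DESeq2's Wald test called Irgm1 lower too. Igtp, which encodes Irgm3, was at 29.0, 26.0, 29.4, 27.7 and 25.3 CPM in MIA, against 25.0, 33.5, 39.3, 26.5 and 29.4 CPM in CON, with overlap and a log2 fold change of −0.16 ± 0.12. The log2 ratio of Irgm2 to Igtp within a library was −0.14 ± 0.16 in MIA and 0.34 ± 0.28 in CON, with overlap; this ratio too was chosen after the values were seen and is given with no test. Irgm2 and Igtp share sequence: 6.79% of the 50-base words of Irgm2 also occur in Igtp, and 11.8% of those of Igtp in Irgm2.

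The promoters of this pair are shown because both motifs stand in each, as they do in those of Oas1a, Ifitm3, Bst2 and Gbp7. Of the pair, Irgm2 passed and Igtp did not, and the part of the letters in this was not tested. In capitals are the GAS letters and, 11 bases farther on, the ISRE letters, 75 and 64 bases before the start of Irgm2 (chr11:58214827-58214976) and 45 and 34 bases before that of Igtp (chr11:58199406-58199555), both on the plus strand.
Irgm2: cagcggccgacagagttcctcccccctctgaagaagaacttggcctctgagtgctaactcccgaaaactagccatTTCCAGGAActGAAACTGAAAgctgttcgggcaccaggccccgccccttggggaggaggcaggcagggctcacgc
Igtp: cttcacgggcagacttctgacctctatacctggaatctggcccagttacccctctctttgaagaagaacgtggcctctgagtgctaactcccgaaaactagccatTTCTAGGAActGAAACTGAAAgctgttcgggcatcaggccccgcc
The guanylate-binding proteins, large GTPases that coat vacuoles, did not pass. Gbp7 was at 73.5, 62.3, 56.5, 61.4 and 65.8 CPM in MIA 1 to 5, against 68.2, 74.0, 73.7, 61.8 and 59.4 CPM in CON 1 to 5, with broad overlap (log2 fold change −0.08 ± 0.09). Gbp3 averaged 27.6 ± 3.66 and 27.6 ± 3.53 CPM, and Gbp2 12.1 ± 1.73 and 12.04 ± 3.08 CPM, in MIA and in CON (SD, n = 5 each). Their directions turned with the scaling: the log2 fold change of Gbp2, 0.0075, was −0.012 with upper-quartile scaling, and that of Gbp3, −0.0044, was 0.058 with total-count scaling.

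Of 8 other interferon-induced genes, Calhm6 alone passed. Calhm6 (ENSMUSG00000046031.7), which encodes a channel-family protein that macrophages are known to raise in answer to interferon gamma, was at 6.13, 7.64, 8.71, 4.85 and 5.33 CPM in MIA 1 to 5, against 11.1, 18.8, 10.8, 13.4 and 13.01 CPM in CON 1 to 5. Retained libraries did not overlap, and the log2 fold change was −1.04 ± 0.21 (edgeR adjusted p = 0.00613), with means of 6.53 ± 1.61 and 13.4 ± 3.24 CPM. MIA 6 and MIA 7, at 9.45 and 11.03 CPM, lay above CON 6 at 7.60 CPM. With all 13 libraries the call was lost (log2 fold change −0.71; edgeR adjusted p = 0.0762), whereas with CON 1 and CON 2 left out it held (−0.93; 0.0110). None of its 50-base words occur in another gene. Its promoter holds the ISRE letters (in capitals) 64 bases before the start and spans chr10:34127973-34128122, read on the minus strand.
Calhm6: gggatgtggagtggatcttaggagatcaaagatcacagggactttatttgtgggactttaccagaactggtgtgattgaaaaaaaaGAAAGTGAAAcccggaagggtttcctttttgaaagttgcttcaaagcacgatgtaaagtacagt
Ifi44, an interferon-induced gene of the antiviral response, was at 3.68, 2.29, 4.97, 3.01 and 7.03 CPM in MIA, against 1.17, 0.619, 3.09, 1.551 and 2.05 CPM in CON. Only CON 3 reached into the MIA range, and the log2 fold change of 1.30 ± 0.43 did not pass (edgeR adjusted p = 0.0763). Without CON 3 it was 1.63 and passed (edgeR adjusted p = 0.0373), and with CON 1 and CON 2 left out it was 0.90 (0.161). Ifi44 also passed with DESeq2's Wald test and with a replicate block. Ifi27l2a, which encodes a small mitochondrial protein, was at 18.3, 14.7, 13.3, 13.5 and 14.8 CPM in MIA, against 6.595, 11.4, 24.8, 19.1 and 20.5 CPM in CON. Its controls lay on both sides of MIA: the log2 fold change of −0.15 ± 0.29 was 0.048 without CON 3, and −0.54 with CON 1 and CON 2 left out, where it passed (edgeR adjusted p = 0.0282).

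The remaining induced genes overlapped between the groups. Trim30a, which encodes a restraint on inflammatory signalling, was at 64.0, 53.3, 40.8, 45.8 and 45.03 CPM in MIA 1 to 5, against 43.5, 63.0, 69.7, 59.0 and 54.9 CPM in CON 1 to 5. Ifi204, a nuclear DNA-binding protein gene of the Ifi200 family, was at 26.9, 22.2, 11.3, 20.03 and 25.6 CPM in MIA, against 25.3, 22.2, 26.5, 24.1 and 27.8 CPM in CON, with MIA 3 lowest; 20% of its 50-base words occur in other genes. Parp14, an ADP-ribosyltransferase gene, averaged 16.5 ± 2.04 CPM in MIA and 20.05 ± 4.01 CPM in CON, and Rtp4, a chaperone gene for receptors, 19.6 ± 2.99 and 21.6 ± 5.54 CPM (SD, n = 5 each). Xaf1, a gene of interferon-driven cell death, averaged 8.83 ± 1.25 and 9.73 ± 2.43 CPM. None of these passed, with edgeR adjusted p-values from 0.287 for Parp14 to 0.738 for Xaf1.

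Since the microglia markers were lower in MIA as well, the 4 lower genes were also set against the summed CPM of the 9 markers in the same library, a scale chosen after the values were seen. Per 1000 CPM of the markers, Ifngr1 was at 20.9 ± 1.34 in MIA and 22.7 ± 2.68 in CON (SD, n = 5 each), and the groups overlapped. Irgm2 was at 1.48 ± 0.256 and 1.56 ± 0.106, also with overlap. Ifngr2 was at 7.65 ± 0.576 and 6.74 ± 0.614, so that on this scale it was the MIA mean that was higher. Calhm6 was at 0.380 ± 0.058 in MIA and 0.540 ± 0.093 in CON, with 0.330 to 0.467 against 0.440 to 0.663, a ratio of 0.705. Of the 4 genes, Calhm6 kept the lowest ratio of MIA to CON on this scale, where Ifngr1 was at 0.917, Irgm2 at 0.952 and Ifngr2 at 1.14.

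**Figure D5:**
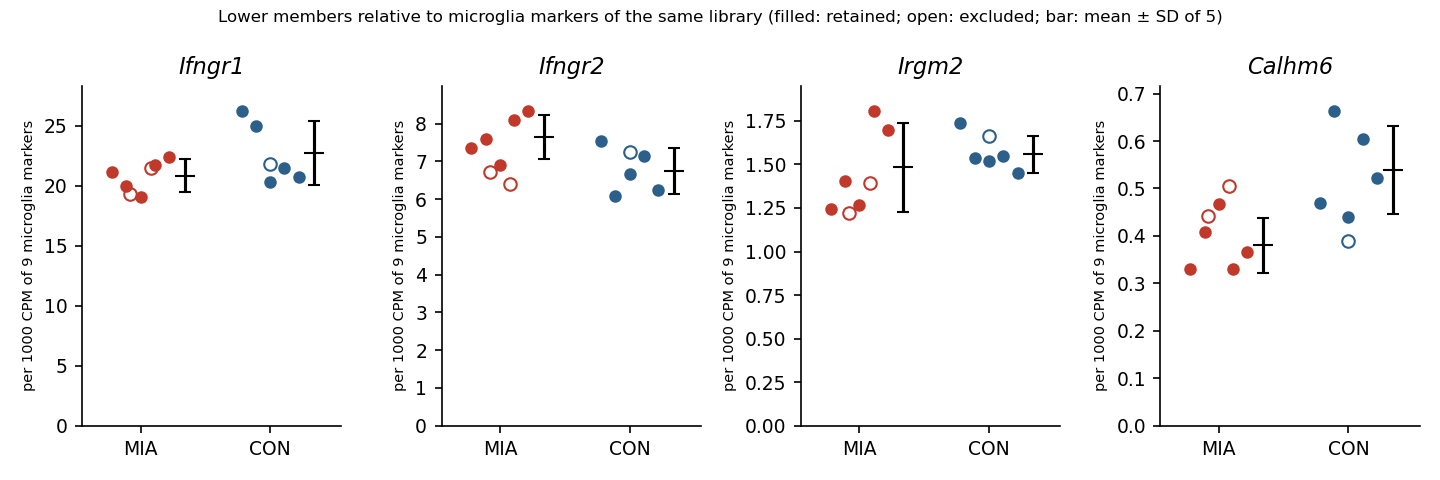
The 4 lower genes per 1000 CPM of 9 summed microglia markers of the same library, MIA left of CON. Filled circles are retained and open circles excluded libraries, bars give the mean ± SD of 5, and the groups overlap for all 4 genes, least for Calhm6 (0.330 to 0.467 in MIA and 0.440 to 0.663 in CON).

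Across the 13 libraries, Ifngr1 and Ifngr2 varied most alike of all 741 pairs of members, with a Pearson r of log2 CPM of 0.94, and 0.92 without CON 1 and CON 2. Ifngr1 and Irgm2 followed (0.91, and 0.83 without CON 1 and CON 2), then Ifngr1 and Calhm6 (0.89), Oasl2 and Ifitm3 (0.88), and Ifngr2 and Irgm2 (0.88), against a median of 0.24 over all pairs. Within the immunity GTPases the most alike pair was Irgm1 and Irgm2 (0.80), and within the ISG15 system Isg15 and Usp18 (0.79). These are descriptions over libraries that share their group, their cell mix and their scaling.

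Of 91 other genes of the interferon pathway, 78 passed the filter. In MIA 1 was higher (1.28%) and 11 were lower (14.1%), against 5.75% and 4.58% of all genes tested. This list too was chosen with earlier results of these data known. The 10 interferon genes of this list were nearly absent. Ifna1, Ifna2, Ifna4, Ifna5, Ifnk, Ifne, Ifnl2 and Ifnl3 had 0 counts in all 13 libraries, and Ifng had 0 to 9 counts. Ifnb1 had 0 counts in CON 1 and CON 2 and 3 to 17 in the other 11 libraries. Among 11 signalling genes, 3 were lower: the interferon regulatory factor genes Irf8 and Irf5, and Ptpn6, a phosphatase gene that restrains Janus kinases. Ptpn6, with a log2 fold change of −0.44 ± 0.13 and an edgeR adjusted p of 0.0392, kept its call only without MIA 2 or CON 1 among the fits that left out a library (0.0681 to 0.125 in the others). Irf8, which microglia need for their identity, was at 226, 249.7, 252, 203 and 193 CPM in MIA 1 to 5, against 313, 337, 349.5, 292 and 324 CPM in CON 1 to 5 (log2 fold change −0.52 ± 0.09; edgeR adjusted p = 0.00220). Irf5 was at 125, 133, 104, 94.0 and 98.4 CPM in MIA, against 142, 143, 165, 150.1 and 144 CPM in CON (−0.42 ± 0.10; 0.0152), and did not pass without MIA 5 (0.0584). Neither gene overlapped between the retained groups. In the excluded libraries the order was not kept. MIA 6 and MIA 7 had 272 and 271 CPM of Irf8 and 134 and 130 CPM of Irf5, against 267 and 117 CPM in CON 6. Jak1, a kinase of both receptors, averaged 178 ± 14.3 CPM in MIA and 191 ± 10.8 CPM in CON (SD, n = 5 each) and did not pass. Tyk2, a kinase of the type I receptor, was at 33.1 to 38.2 CPM in MIA 1 to 5 and 38.9 to 48.7 CPM in CON 1 to 5, without overlap. Tyk2 passed only without CON 1 among the fits that left out a library (edgeR adjusted p = 0.0693, and 0.0398 without CON 1).

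Of 12 sensing genes, 3 were lower: Tlr7, the endosomal sensor of single-stranded RNA, Unc93b1, which carries such receptors to endosomes, and Tmem173, which encodes STING. Unc93b1 was at 884, 909, 861, 731 and 741 CPM in MIA 1 to 5, against 1246, 1429, 1194, 1028 and 1231 CPM in CON 1 to 5 (log2 fold change −0.57 ± 0.10; edgeR adjusted p = 0.00229). Tlr7 was at 139.8, 125, 124, 122 and 109.9 CPM in MIA, against 180.2, 221, 154, 173 and 179 CPM in CON (−0.55 ± 0.10; 0.00283). Both genes separated the retained groups, and CON 1 and CON 2 lay above the other 11 libraries in both. CON 3 to 5 averaged 1151 CPM of Unc93b1 and 169 CPM of Tlr7. MIA 6 and MIA 7, at 1054 and 1054 CPM of Unc93b1 and 155 and 164 CPM of Tlr7, lay above CON 6 at 949 and 144 CPM. The median log2 fold change of the 9 microglia markers was −0.55, and their part in these results was not tested. Tmem173 averaged 100.5 ± 14.4 and 129 ± 6.46 CPM (−0.36 ± 0.09) and lost its call without CON 2 (edgeR adjusted p = 0.0681), MIA 1 (0.0522), MIA 4 (0.0765) or MIA 5 (0.0733). Among 42 effector genes tested, 5 were lower, Trafd1, Lgals3bp, Eif2ak2, Epsti1 and Znfx1, and Samd9l was higher. Trafd1, a negative regulator of innate immunity, averaged 55.0 ± 5.10 CPM in MIA and 74.7 ± 6.498 CPM in CON. Lgals3bp, a secreted galectin-binding protein gene, averaged 163 ± 24.6 and 226 ± 17.9 CPM. In both genes the retained libraries of the groups did not overlap. Eif2ak2, which encodes the RNA-activated kinase PKR, averaged 11.4 ± 1.74 and 16.7 ± 2.05 CPM (SD, n = 5 each; −0.56 ± 0.14; edgeR adjusted p = 0.0233) and kept its call only without MIA 1, MIA 4, CON 1 or CON 2 among the fits that left out a library (0.0535 to 0.0616 in the others). Epsti1 averaged 13.5 ± 2.82 and 20.1 ± 2.85 CPM and lost its call without CON 3, CON 5, MIA 3, MIA 4 or MIA 5 (edgeR adjusted p = 0.0746 to 0.0973). Znfx1, at 45.6 ± 4.66 and 59.0 ± 7.79 CPM, kept its call only without MIA 3, CON 4 or CON 5 (edgeR adjusted p = 0.0415, and 0.0590 to 0.109 in the other such fits). Samd9l, an antiviral gene, was at 11.6 to 22.6 CPM in MIA and 5.70 to 14.1 CPM in CON (0.88 ± 0.24; edgeR adjusted p = 0.0329), and passed only without MIA 2, CON 1 or CON 5 among such fits (0.0554 to 0.104 in the others). Fits without CON 3, MIA 4 or MIA 5 left 7, 7 and 6 lower pathway genes, where 507, 382 and 365 of all genes were lower. No gene of the 10 other GTPases tested passed, nor did the chemokine gene Cxcl10, which was at 258, 199, 240.2, 181 and 154 CPM in MIA 1 to 5, against 10.8, 11.04, 214, 251 and 277 CPM in CON 1 to 5. Cxcl10 was thus low in CON 1 and CON 2 alone among the retained libraries.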

How the data were processed

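RNA of CD11b-selected microglia was sequenced from libraries made by a modified Smart-Seq2 protocol (priming on poly(A) tails) and a tagmentation kit that does not mark strand, per the labels' protocols. The authors deposited 1 table of expected counts, estimated counts per gene that need not be whole, for 13 libraries without normalization. The submitters' processing notes name RSEM, STAR and DESeq2; for roles, versions, build and annotation: not given in the sources used here. Of nonzero values 20.6% were not whole, and all were rounded, by at most 0.5. Symbols were assigned by Ensembl ID (55141 of 55487 matched).

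Groups follow the titles; excluded libraries entered only named alternatives. Genes were tested with edgeR 4.0.16 in R 4.3.3 (filterByExpr, TMM scaling, robust quasi-likelihood fit, Benjamini-Hochberg over 15511 genes). Standard errors (SE) were taken as the size of the log2 fold change divided by the square root of F. CPM use TMM factors over all 13 libraries, and log2 CPM a prior count of 2. Libraries of a group differed beyond counting noise (chi-square per gene of 14.8 or more), so none was counted as deposited more than once; whether any share an animal is not known from this. The pipeline was checked on simulated data. Promoters came from RefSeq (GRCm38.p6), and shared 50-base words from GENCODE transcripts, which may not be the authors' annotation.

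The members and the gene lists were chosen with earlier results of these data known. Values in every retained library are given for members past the threshold in the fit or in an alternative, and for the 2 of highest CPM in each of 8 roles; Ifnar1 and Igtp were added after their values were seen. Of the other pathway genes, up to 10 past the threshold are named by smallest p, with Jak1, Tyk2, Eif2ak2 and Cxcl10 always, and 1 gene is not reported here; Ptpn6 and Znfx1 fall outside that rule. In all, 21 alternatives were run, with DESeq2 1.42.0 and limma 3.58.1 among them; the scale on microglia markers and the ratios of genes were added later.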

Additional observations from a re-analysis of the deposited data

Results flagged for a closer look

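A library far from the others of its group was found for 2 members, out of 78 groups of 5 libraries examined, of which chance marks about 5%. Ifnar2 was at 89.5 CPM in MIA 2, against 98.5 to 101 CPM in the other 4 retained MIA libraries. Irf7 was at 5.30 CPM in MIA 4, against 8.16 to 8.98 CPM in the other 4. The edgeR adjusted p of Ifnar2 stayed between 0.0691 and 0.164 in the fits that left out a library, and the log2 fold change of Irf7 ran from −0.33 to 0.057 in those fits.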

How the results depend on the processing

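Irgm2 passed in all 21 alternatives, Ifngr1 and Ifngr2 in 20 and Calhm6 in 19; leaving out any single retained library kept all 4 calls. Genes changed numbered 1602, 659 with all 13 libraries, 90 with all 13 except CON 1 and CON 2, and 1037 (without MIA 5) to 2263 (without CON 1) in fits without a library, with 1057 without MIA 4. Members lower numbered 8 with DESeq2, 7 with CON 1 and CON 2 left out, 1 with all 13 except those, and 4 to 7 without a library; members higher were 1 with DESeq2 and 0 to 1 without a library. Other pathway genes higher numbered 2 with DESeq2 and 0 to 2 without a library. They numbered 0 with all 13 libraries, with CON 1 and CON 2 left out, and with all 13 except those. Other pathway genes lower numbered 2 with all 13, 0 with all 13 except CON 1 and CON 2, and 6 to 14 without a library. Of all genes tested, the lower numbered 1000 with DESeq2, 235 with all 13 libraries and 866 with CON 1 and CON 2 left out. With all 13 except CON 1 and CON 2, 37 were lower, and without a library 365 to 1025 were. The higher numbered 1162, 424, 1100 and 53 in these settings in turn, and 672 to 1238 without a library. Between 14889 and 16104 genes were tested.

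Same-numbered MIA and CON libraries deviated together with r of 0.058 to 0.30 (above 0.1 for 2 of 5 numbers), so the numbers were not taken as pairs. A replicate block gave 1524 genes, 900 of them higher and 624 lower. In that fit 1 member was higher (Ifi44), the same 4 were lower, 2 other pathway genes were higher, and Epsti1 was without a call.

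Of the 4 lower genes, Ifngr2 alone turned sign, to 0.18 relative to the microglia markers. Genes that did not pass turned sign in some settings, and the cause was not tested. With CON 1 and CON 2 left out, log2 fold changes were −0.094 for Irf1, −0.20 for Ddx58, −0.064 for Oasl2, −0.018 for Usp18, −0.18 for Gbp2 and −0.27 for Cxcl10. With all 13 libraries they were −0.0013 for Ddx58, −0.00017 for Usp18, −0.012 for Gbp2, 0.020 for Gbp3 and 0.033 for Xaf1. With all 13 except CON 1 and CON 2 they were −0.17 for Ddx58, 0.00074 for Ifit2, −0.11 for Oasl2, −0.082 for Usp18, −0.16 for Gbp2, 0.0018 for Gbp3 and 0.038 for Gbp7. Total-count scaling gave 0.011 for Ifitm2 and 0.058 for Gbp3, upper-quartile scaling −0.012 for Gbp2, and the strict filter 0.035 for Gbp3. Without a library, values ran from −0.33 to 0.057 for Irf7, −0.074 to 0.13 for Ddx58, −0.19 to 0.20 for Isg15, −0.042 to 0.28 for Usp18, −0.12 to 0.0071 for Ifitm2, −0.082 to 0.17 for Gbp2, −0.080 to 0.055 for Gbp3, −0.35 to 0.048 for Ifi27l2a, −0.25 to 0.0035 for Xaf1 and −0.24 to 0.020 for Rtp4.

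Counts per library were low for Ifit1 (25 to 181), Mx1 (15 to 95) and Zbp1 (38 to 133), and counting error was not separated there from the spread between libraries.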
